A study of Mus musculus with 4 samples.

Results

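The MAP kinase dual-specificity phosphatases described here are 10 genes picked by symbol, Dusp1, Dusp2, Dusp4, Dusp5, Dusp7, Dusp8, Dusp10, Dusp14, Dusp16 and Dusp26, and all 10 are among the 11603 genes of the authors' table. RNA sequencing measured their transcripts in muscle stem cells, which are the resident precursors of skeletal muscle fibres, sorted from hindlimb muscle of male C57BL/6 mice aged 4 to 5 months. The sort kept cells that carry VCAM1 on their surface and lack CD31, CD45 and Sca1. One group is labelled Control and the other Conditional Hairless knockout, with 2 libraries each, called control 1 and 2 and knockout 1 and 2 below. Hairless (Hr) encodes a nuclear corepressor. The labels name neither the Cre driver nor the genotype of the control mice, and they do not say whether the 2 libraries of a group came from separate animals. The p-values therefore measure only the spread between these libraries, which may be technical.

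Most MAP kinases are switched on when a pair of residues in their activation loop, a threonine and a tyrosine, is phosphorylated. Dual-specificity phosphatases remove both phosphates and so switch the kinases off. A nuclear set, here Dusp1, Dusp2, Dusp4 and Dusp5, is transcribed as part of the immediate-early response to the same kinases and closes a negative feedback loop. The others act largely in the cytoplasm, move between compartments, or are small enzymes that lack the amino-terminal kinase-binding domain. In muscle stem cells, p38 and ERK signalling act in the exit from quiescence and in the choice between division and differentiation.

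The promoters of 3 of the nuclear inducible genes are shown because the motifs through which immediate-early genes are usually induced differ between them. RefSeq promoters (GRCm38.p6) were found for 8 of the 10 genes. Capitals mark exact matches on either strand to the cAMP response element TGACGTCA or its short form TGACG, which is contained in it, to the E-box CACGTG, and to the CArG box bound by serum response factor. Each run is in the direction of transcription and stops before the first annotated exon base. The runs lie at chr17:26508520-26508722 (minus strand), chr2:127335909-127336158 (plus strand) and chr19:53528895-53529108 (plus strand).
Dusp1: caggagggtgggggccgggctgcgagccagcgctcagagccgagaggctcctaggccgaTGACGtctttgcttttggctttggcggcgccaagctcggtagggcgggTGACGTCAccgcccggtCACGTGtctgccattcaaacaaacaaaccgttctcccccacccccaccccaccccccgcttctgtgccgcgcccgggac
Dusp2: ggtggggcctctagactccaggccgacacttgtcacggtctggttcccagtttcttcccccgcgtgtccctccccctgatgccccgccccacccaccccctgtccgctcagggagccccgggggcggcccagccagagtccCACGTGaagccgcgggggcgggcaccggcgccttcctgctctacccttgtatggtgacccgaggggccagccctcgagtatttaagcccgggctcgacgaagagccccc
Dusp5: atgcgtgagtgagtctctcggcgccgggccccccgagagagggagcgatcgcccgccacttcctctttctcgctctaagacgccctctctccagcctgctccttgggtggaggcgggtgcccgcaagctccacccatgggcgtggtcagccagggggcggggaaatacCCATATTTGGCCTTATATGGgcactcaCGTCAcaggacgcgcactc
The full response element is present once in Dusp1, at bases -143 to -136 from the RefSeq start, and 2 times in Dusp8, at -107 to -100 and -63 to -56. Among all 32851 RefSeq promoters, 1.55% held it within the same 250 bases upstream of the start. The Dusp5 promoter holds 2 adjoining CArG boxes at -82 to -73 and -72 to -63, a motif held by 1.47% of promoters. The Dusp1 and Dusp2 promoters each hold 1 E-box, found in 6.02% of promoters, and the short form TGACG, found in 17.8%, also occurs in Dusp5 and Dusp16. None of the 8 promoters held the AP-1 site TGACTCA on either strand, which 4.46% of promoters held. None of the motifs searched was found for Dusp7, Dusp10 or Dusp14. A match is a description of these letters and not evidence of binding.

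Hr had 9.28 and 8.94 RPKM in control 1 and 2 and 7.15 and 7.90 RPKM in knockout 1 and 2, with a limma adjusted p of 0.431. RPKM is reads divided by gene length and by library size. Both knockout values of Hr were thus below both control values, as they were for 26.2% of all genes, and limma did not call Hr. The transcript was present in the libraries labelled knockout, and values summed over all exons cannot show whether part of the gene was removed. The libraries held 21757211 to 34101213 reads on the listed genes. All 8 marker genes of muscle stem cells were measured, with summed levels of 2971 and 2432 RPKM in controls and 3905 and 4155 RPKM in knockouts, and Pax7 lay between 8.23 and 13.1 RPKM. Sdc4 held most of that sum, with 2121 and 1582 RPKM in controls and 3031 and 3260 RPKM in knockouts. Of the 8 log2 fold changes, 4 were above 0 and 4 below, with a median of 0.03. Groups did not overlap for 3 with higher values in knockout, Myf5, Sdc4 and Chodl. They also did not overlap for 1 with lower values, Itga7, an integrin subunit. These counts stand beside 25.0% and 26.2% of all genes. The ratio of the group means was 1.70 for Sdc4 and 0.535 for Itga7. Their q-values in the authors' deposited table were 0.0028 and 0.00849. Ptprc, which encodes CD45, was at or below 0.0399 RPKM in every library, and the 4 measured of 6 blood cell markers summed to 5.21 to 7.24 RPKM, nearly all of it Cd68. Ly6a, which encodes the Sca1 that sorted cells should lack, was present, at 47.9 and 49.5 RPKM in controls and 77.4 and 80.7 RPKM in knockouts, so that its groups did not overlap. Its limma adjusted p was 0.152 and its q-value in the authors' deposited table was 0.4035. The 4 measured of 6 markers of fibro-adipogenic cells, Ly6a among them, summed to 150 and 121 RPKM in controls and 142 and 180 RPKM in knockouts, with 2 above 0 and 2 below in log2 fold change. For the 5 measured of 6 myofibre markers, the summed RPKM was 159 in control 1, 620 in control 2, 47.9 in knockout 1 and 44.7 in knockout 2. Each knockout library lay below both controls for 4 of the 5. Acta1 held most of each sum, including 143.6 RPKM of that in control 1. Ckm, Pvalb and Tnnt3 had 3.63, 5.22 and 5.58 RPKM in control 1, near their knockout values of 2.9 to 5.9 RPKM. Their values in control 2 were 39.4, 54.45 and 70.1 RPKM. Myh1 had 0.66 RPKM in control 1, against 0.30 and 0.35 RPKM in knockouts. The 6 endothelial markers summed to 58.1 and 76.4 RPKM in controls and 41.9 and 63.2 RPKM in knockouts. In log2 fold change 1 of them was above 0 and 5 below, with a median of -0.45. Pecam1, which encodes the CD31 that sorted cells should lack, was present and its groups overlapped. It had 8.04 and 11.9 RPKM in controls and 5.51 and 9.66 RPKM in knockouts. The 6 smooth muscle and pericyte markers summed to 344 and 497 RPKM in controls and 166 and 243 RPKM in knockouts. Acta2, a smooth muscle actin, held most of that sum, and it and Cspg4 were the 2 below 0 in log2 fold change, while the other 4 were above 0 and the median over the 6 was 0.14. The part of these differences in the results below was not tested. Without control 2, which held most of the myofibre signal, the log2 fold changes described below were 0.64 for Dusp1, 0.60 for Dusp2, 0.73 for Dusp14, 0.95 for Dusp26, -0.58 for Dusp4 and -0.68 for Dusp10. Leaving it out does not remove the myofibre difference, since the sum in control 1 was still above those in the knockouts. That remaining difference was mostly in Acta1. In bulk samples, a change in the share of a cell type and a change in RNA per cell cannot be told apart.

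Among the 10 phosphatases, Dusp1, Dusp2, Dusp14 and Dusp26 were above both control libraries in each knockout library, by 1.61-fold to 2.13-fold in the group means. Dusp4 and Dusp10 were lower in both, by 1.43-fold each, and the values of Dusp5, Dusp7, Dusp8 and Dusp16 overlapped between the groups. No member passed the test after adjustment over all genes. The test was limma on log2(RPKM + 0.5), with genotype as the single term and an adjusted p threshold of 0.05. limma called 0 members higher and 0 lower, against 0.00862% of all genes, and 4 higher and 0 lower at an unadjusted p under 0.05, against 10.3% and 7.69% of all genes. limma-voom on reads recovered from the RPKM values also called 0 members, against 0.0948% of all genes, with 4 higher and 1 lower at an unadjusted p under 0.05, against 9.95% and 8.5% of all genes. Groups that did not overlap were seen in 25.0% of all genes for higher and 26.2% for lower, and the 4 and 2 of 10 members are to be read against those shares. In the authors' deposited table, 3 members (Dusp1, Dusp14 and Dusp26) had a q-value under 0.05, all higher, where 3.59% of all genes were higher by that rule.

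**Figure D1:**
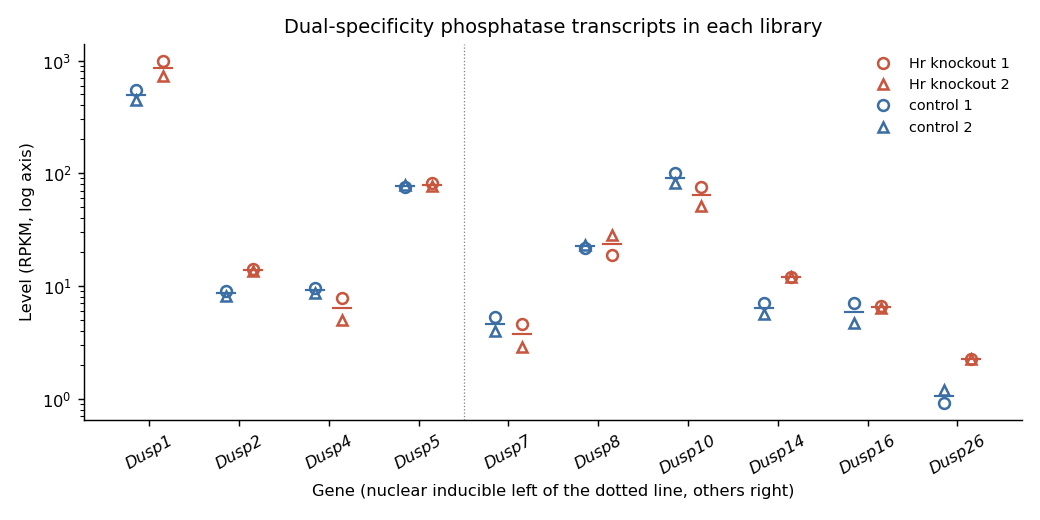
Level of each phosphatase transcript in RPKM on a log axis, with control libraries in blue and knockout libraries in red, circles for library 1, triangles for library 2, and short lines at the group means. Dusp1 stands far above the other 9 genes in every library, and the control and knockout symbols are apart for Dusp1, Dusp2, Dusp4, Dusp10, Dusp14 and Dusp26.

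Dusp1 (chromosome 17, 26505590 to 26508519, minus strand, mm10) encodes a nuclear phosphatase that acts mainly on p38 and JNK. It had 545 and 449 RPKM in control 1 and 2 and 989.5 and 730.5 RPKM in knockout 1 and 2. Both knockout libraries lay above both controls, and the 259 RPKM between the knockout libraries was smaller than the 363 RPKM between the group means. The means were 497 ± 68.1 and 860.0 ± 183 RPKM (SD, n = 2), 1.73-fold higher in knockout. The log2 fold change, on the log2(RPKM + 0.5) scale, was 0.78 with a standard error of 0.21, a 95% interval of 0.25 to 1.31 and a limma adjusted p of 0.189. In the authors' deposited table its q-value was 0.0393. Dusp1 rested on 25284 to 68907 reads a library, so the spread between libraries and not counting limited its precision.

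Dusp2 (chromosome 2, 127336159 to 127338376) encodes a nuclear phosphatase best known from activated lymphocytes. Its level was 8.98 and 8.20 RPKM in controls and 14.0 and 13.6 RPKM in knockouts. The libraries of each group lay close together, within 0.774 RPKM in controls and 0.422 RPKM in knockouts, and the groups were 5.24 RPKM apart in their means. The log2 fold change was 0.66 with a standard error of 0.15, a 95% interval of 0.29 to 1.03 and a limma adjusted p of 0.172. The q-value in the authors' deposited table was 0.0876. Dusp2 was present at about the level of Dusp4 in control, where their library values overlapped, and above Dusp4 in knockout.

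Dusp4 (chromosome 8, 34807297 to 34819894) encodes another nuclear phosphatase of ERK and JNK, and its difference had the opposite sign to those of Dusp1 and Dusp2. It had 9.63 and 8.71 RPKM in controls and 7.89 and 4.98 RPKM in knockouts. Both knockout values were below both control values, but the knockout libraries differed by 2.91 RPKM, more than the 2.74 RPKM by which the knockout mean was lower. The log2 fold change was -0.51 with a standard error of 0.24, a 95% interval of -1.11 to 0.09 and a limma adjusted p of 0.333. Without knockout 1 it was -0.82, and without knockout 2 it was -0.20.

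Dusp5 (chromosome 19, 53529109 to 53542431) encodes a nuclear phosphatase specific for ERK. Its level was 74.9 and 78.3 RPKM in controls and 81.2 and 76.5 RPKM in knockouts, and the groups overlapped. The log2 fold change was 0.04 with a 95% interval of -0.28 to 0.37 and a limma adjusted p of 0.897. GENCODE places an antisense gene over 547 bases of the Dusp5 exons and another over 66 bases of the Dusp8 exons. No source used here says whether the counting used strand. The 4 nuclear inducible genes thus comprised 2 with higher values, 1 with lower values and 1 whose groups overlapped, with a median log2 fold change of 0.35 beside -0.01 over all genes. Leaving out knockout 1 gave a median of 0.28. Scaling by the reads listed, described below, gave 0.12, beside -0.20 over all genes on that scale.

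Of the phosphatases that act on JNK and p38 outside the inducible nuclear set, Dusp10 was the most abundant. Dusp10 (chromosome 1, 184013302 to 184075636) encodes an enzyme found in both cytoplasm and nucleus, whose loss in mice is known to favour muscle regeneration. It had 101 and 82.0 RPKM in controls and 75.7 and 51.7 RPKM in knockouts. Both knockout libraries were below both controls, with knockout 1 close to control 2. The means were 91.3 ± 13.2 and 63.7 ± 17.0 RPKM (SD, n = 2), and the log2 fold change was -0.53 with a standard error of 0.22, a 95% interval of -1.09 to 0.02 and a limma adjusted p of 0.290. Without knockout 1 it was -0.81, and without knockout 2 it was -0.26. Dusp8 (chromosome 7, 142079490 to 142095843) had 21.9 and 23.0 RPKM in controls and 18.7 and 28.1 RPKM in knockouts. The knockout libraries of Dusp8 lay on either side of both controls, and its log2 fold change was 0.03 with a 95% interval of -0.51 to 0.57 (limma adjusted p = 0.960). Dusp16 (chromosome 6, 134715473 to 134792625), a phosphatase of JNK that shuttles between nucleus and cytoplasm, had 7.02 and 4.70 RPKM in controls and 6.65 and 6.33 RPKM in knockouts. Its knockout values fell between the control values, with a log2 fold change of 0.16, a 95% interval of -0.39 to 0.71 and a limma adjusted p of 0.739.

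Dusp7 (chromosome 9, 106368632 to 106375724) encodes a cytoplasmic phosphatase of ERK. It had 5.28 and 3.97 RPKM in controls and 4.64 and 2.85 RPKM in knockouts, so that knockout 1 lay between the controls. The log2 fold change was -0.29 with a 95% interval of -0.96 to 0.37 and a limma adjusted p of 0.598. Dusp6, another cytoplasmic phosphatase of ERK and not one of the 10, had 49.7 and 54.1 RPKM in controls and 38.3 and 31.9 RPKM in knockouts, with a log2 fold change of -0.56 and a limma adjusted p of 0.189.

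Dusp14 and Dusp26 are the small members without the kinase-binding domain, and they had the 2 highest fold values of the 10. Dusp14 (chromosome 11, 84048041 to 84069261) had 7.05 and 5.69 RPKM in controls and 12.1 and 11.9 RPKM in knockouts. The knockout libraries differed by 0.214 RPKM and lay 5.63 RPKM above the control libraries in the mean. The means were 6.37 ± 0.962 and 12.0 ± 0.151 RPKM (SD, n = 2), 1.88-fold higher, and the log2 fold change was 0.87 with a standard error of 0.17, a 95% interval of 0.44 to 1.30 and a limma adjusted p of 0.153. Its q-value of 0.000726 was the lowest of the 10 in the authors' deposited table. Dusp26 (chromosome 8, 31089471 to 31097047) was the least abundant member, at 0.917 and 1.18 RPKM in controls and 2.23 and 2.24 RPKM in knockouts. Both knockout libraries were above both controls, and the means of 1.05 ± 0.190 and 2.24 ± 0.00715 RPKM (SD, n = 2) were 2.13-fold apart. The log2 fold change of Dusp26 was 0.83 with a standard error of 0.17, a 95% interval of 0.41 to 1.24 and a limma adjusted p of 0.153. The pseudocount of 0.5 lowers this value for so low a gene, and the q-value in the authors' deposited table was 0.00631. Dusp26 rested on 49 and 57 reads in control and 133 and 85 reads in knockout. The 6 members outside the nuclear inducible set thus held 2 with higher values, 1 with lower values and 3 that overlapped, with a median log2 fold change of 0.10. The nuclear inducible genes and the other members therefore each spanned higher and lower values, and the difference between the sets was not tested.

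**Figure D2:**
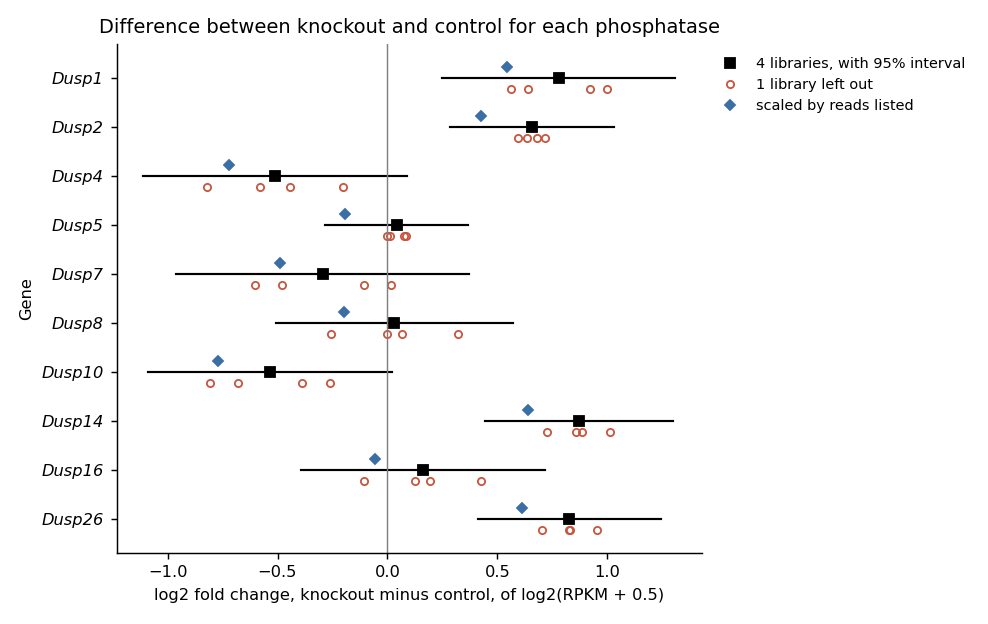
Log2 fold change of each phosphatase, knockout minus control, on the log2(RPKM + 0.5) scale. Black squares and lines give the value over 4 libraries and its 95% interval, red circles the values with 1 library left out, and blue diamonds the value when libraries are scaled by the reads listed. The intervals of Dusp1, Dusp2, Dusp14 and Dusp26 lie above 0, and Dusp5, Dusp8 and Dusp16 pass from above to below 0 when scaled by the reads listed.

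The size of these values depends on how libraries are scaled. The authors' divisors, read from the steps in the values, came to 85.9% and 92.4% of the reads listed in control and 75.7% and 75.5% in knockout. Scaling by the reads listed instead moved the median over all genes by -0.19 on the log2 scale. On that scale Dusp1 had a log2 fold change of 0.54, Dusp2 of 0.43, Dusp14 of 0.64 and Dusp26 of 0.61, while Dusp10 had -0.77 and Dusp4 had -0.72. The signs of those 6 genes were the same on both scales. Dusp5, Dusp8 and Dusp16 passed below 0. The median of the members outside the nuclear inducible set became -0.13, beside -0.20 over all genes. A further scaling divided each library by the median ratio of its values to the gene means. It moved the median over all genes by 0.004, and every member kept its sign. On that scale Dusp1 had a log2 fold change of 0.785 and Dusp10 of -0.53.

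Ratios between members within a library do not depend on library scaling. They were computed after the values had been seen and are given as a description. Dusp1 was 5.42 and 5.48 times the level of Dusp10, per length, in control 1 and 2 and 13.1 and 14.1 times in knockout 1 and 2. The ratio was thus almost the same in the libraries of a group, although both genes differed between those libraries, and it was 2.50-fold higher in the knockout mean. The ratio of Dusp1 to Dusp4 was 56.6 and 51.6 in control and 125 and 147 in knockout, and that of Dusp1 to Dusp7 was 103 and 113 in control and 213 and 256 in knockout. How each ratio differs between the groups follows from the members' own values given above and is no separate result. Its ratio to Dusp2 was 60.8 and 54.8 in control and 70.5 and 53.6 in knockout, and its ratio to Dusp14 was 77.3 and 79.0 in control and 81.7 and 61.4 in knockout. Its ratio to Dusp26 was 595 and 379 in control and 443 and 325 in knockout, and the groups overlapped in all 3 cases. The ratio of Dusp1 to each of Dusp4, Dusp5, Dusp7, Dusp8, Dusp10 and Dusp16 was above both controls in both knockout libraries.

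**Figure D3:**
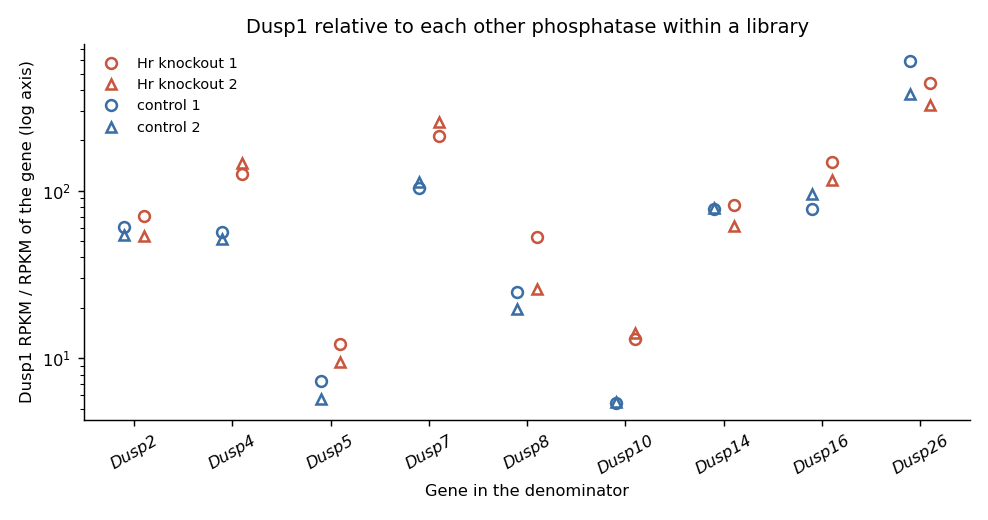
Ratio of the Dusp1 level to that of each other phosphatase within a library, on a log axis, with control in blue, knockout in red, circles for library 1 and triangles for library 2. The ratio to Dusp10 goes from 5.42 and 5.48 in control to 13.1 and 14.1 in knockout, while the ratios to Dusp2, Dusp14 and Dusp26 overlap between the groups.

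Dusp1 dominated the family. It made up 69.8% and 67.6% of the summed RPKM of the 10 genes in control and 81.6% and 78.7% in knockout, and its mean level ranked 107 among the 11603 genes. The sum over the 10 genes was 782 and 665 RPKM in controls and 1213 and 929 RPKM in knockouts. Without Dusp1 the sum was 236 and 216 RPKM in controls and 223 and 198 RPKM in knockouts, which overlapped. In control the order by mean level was Dusp1, Dusp10, Dusp5, Dusp8, Dusp4, Dusp2, Dusp14, Dusp16, Dusp7 and Dusp26. The library values of the neighbours Dusp4 and Dusp2, Dusp14 and Dusp16, and Dusp16 and Dusp7 overlapped, and the other neighbours were apart. In knockout the order was Dusp1, Dusp5, Dusp10, Dusp8, Dusp2, Dusp14, Dusp16, Dusp4, Dusp7 and Dusp26, with overlap between Dusp16 and Dusp4 alone. Dusp10 was above Dusp5 in both control libraries and below it in both knockout libraries.

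Several members also differed between libraries of the same group. Dusp1, Dusp4, Dusp7 and Dusp10 were higher in library 1 than in library 2 of both groups, by 1.11-fold to 1.33-fold in control and 1.35-fold to 1.63-fold in knockout. Dusp2, Dusp14 and Dusp16 were also higher in library 1 of both groups, by 1.02-fold to 1.49-fold. In all, 8 of the 10 members were higher in knockout 1 than in knockout 2. The immediate-early genes had the reverse arrangement, with 22 of 26 higher in knockout 2 than in knockout 1, where 6060 of all 11603 genes were. In the control pair, 19 of those 26 and 3 of the 10 members were higher in control 2, where 5876 of all 11603 genes were.

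The immediate-early transcription factors and their relatives are transcribed, like the nuclear phosphatases, within minutes of MAP kinase activation, and are also induced when muscle is dissociated. Of 26 measured genes, 0 were called by limma in either direction and 8 were higher at an unadjusted p under 0.05, as were 10.3% of all genes. The median log2 fold change was 0.43 beside -0.01 over all genes, with 24 of 26 above 0, where 5595 of all 11603 genes were. Both knockout libraries lay above both controls for 15 of the 26, and for 25.0% of all genes. Their summed level was 11390 and 13030 RPKM in controls and 14860 and 21060 RPKM in knockouts. Scaled by the reads listed, 19 of 26 were above 0 and the median was 0.20, beside -0.20 over all genes. The 2 most abundant were Egr1, with 1515 and 2289 RPKM in controls and 2097 and 3384 RPKM in knockouts, and Fos, with 1325 and 1214 RPKM in controls and 1986 and 2264 RPKM in knockouts. The Egr1 groups overlapped and the Fos groups did not. Whether the higher values of these genes have a part in those of Dusp1 and Dusp2 was not tested.

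MAP kinases and the kinases around them in the pathway were counted in the same way. At an unadjusted p under 0.05 in limma, 10.3% of all genes were higher and 7.69% were lower. The counts below at that p are to be read against those shares. Of 12 measured MAP kinases, 0 were called by limma, 1 was higher and 2 were lower at an unadjusted p under 0.05, and the median log2 fold change was -0.09. Groups did not overlap for 2 with higher and 3 with lower values in knockout, beside 25.0% and 26.2% of all genes. The 3 at an unadjusted p under 0.05, named here after their values were seen, were Mapk4, Mapk6 and Mapk7, with log2 fold changes of 0.41, -0.53 and -0.57. These 3 encode ERK-family kinases, and Mapk4 was below 1 RPKM in every library. Mapk14, which encodes p38 alpha, had 21.8 and 20.8 RPKM in controls and 23.3 and 20.7 RPKM in knockouts. Its values overlapped between the groups. The 7 MAP kinase kinases had a median of -0.01 with 0 calls, 0 also at an unadjusted p under 0.05. Map2k3, an activator of p38, was the most abundant of them, with 512 and 417 RPKM in controls and 510 and 367 RPKM in knockouts. Map2k1, which activates ERK, came next, with 92.9 and 69.8 RPKM in controls and 107 and 84.4 RPKM in knockouts. Among 18 upstream kinases and scaffolds, 0 were called and 1 was higher and 3 were lower at an unadjusted p under 0.05, with a median of -0.04. Of these 18, 6 were above 0 and 12 below in log2 fold change. Groups did not overlap for 3 with higher and 6 with lower values, beside 25.0% and 26.2% of all genes. Map3k6, the most abundant of the 18 by reads, was among those 3. It had 43.2 and 40.5 RPKM in controls and 68.3 and 54.4 RPKM in knockouts. The 10 kinases activated by MAP kinases had a median of -0.09, with 0 called and 1 lower at an unadjusted p under 0.05. Mapkapk2, a substrate kinase of p38, had 158 and 121 RPKM in controls and 136 and 139 RPKM in knockouts. Mknk2, which phosphorylates a translation initiation factor, had 41.2 and 49.6 RPKM in controls and 36.4 and 45.8 RPKM in knockouts, and both genes overlapped between the groups.

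Other dual-specificity phosphatases, not all of which act on MAP kinases, and other inhibitors of the pathway were counted in the same way. The 13 measured dual-specificity phosphatases outside the 10 had a median log2 fold change of -0.05, with 0 called by limma. At an unadjusted p under 0.05 in limma, 0 were higher and 3 were lower, beside 10.3% and 7.69% of all genes. By the q-value in the authors' deposited table, 2 of the 13 were lower and 0 higher, where 4.26% of all genes were lower by that rule. The most abundant of the 13 by reads were Dusp6, given above, and Dusp11, an RNA phosphatase, with 14.5 and 12.8 RPKM in controls and 13.7 and 11.9 RPKM in knockouts. The 5 measured Sprouty and Spred genes, which restrain the pathway above ERK, had a median of -0.06 and 0 calls, 0 also at an unadjusted p under 0.05. Spry1 had 175 and 160.0 RPKM in controls and 147 and 135 RPKM in knockouts, and Spred1 had 64.4 and 42.8 RPKM in controls and 56.7 and 44.9 RPKM in knockouts. The 5 other phosphatases that can act on MAP kinases had a median of 0.12 and 0 calls, 0 also at an unadjusted p under 0.05. Scaled by the reads listed, that median was -0.11, beside -0.20 over all genes. The most abundant of them was Ppp2ca, the catalytic subunit of protein phosphatase 2A, with 146 and 123 RPKM in controls and 176 and 171 RPKM in knockouts. Ppm1a, a phosphatase of p38 and JNK, had 71.5 and 64.1 RPKM in controls and 70.5 and 63.5 RPKM in knockouts.

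**Figure D4:**
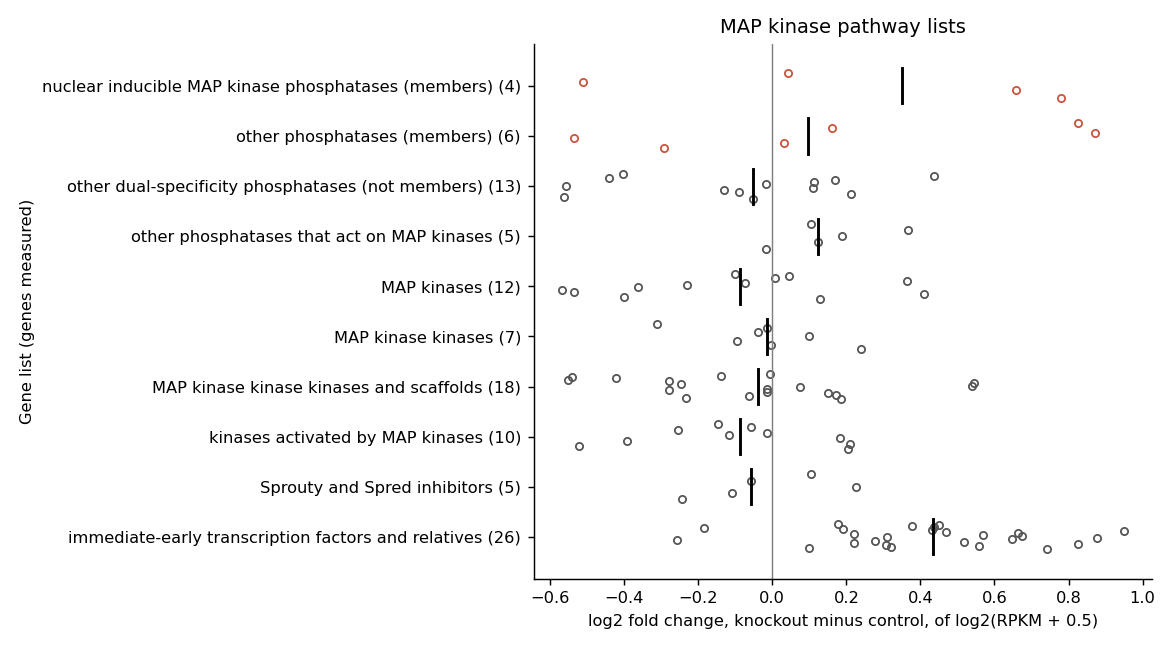
Log2 fold change, knockout minus control, of every measured gene in each list, with the 10 phosphatases in red, other genes in grey and a black line at each list's median. The immediate-early list has the highest median, 0.43, and the medians of the kinase lists lie between -0.09 and -0.01.

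The genes whose 4 library values followed those of Dusp1 most closely were sought among 9464 genes with a mean of at least 5 CPM, which is RPKM times gene length. Closeness was the Euclidean distance between log2(RPKM + 0.5) values centred on each gene's mean, over 4 libraries. Ifi27, an interferon-induced gene, was at a distance of 0.036, Hilpda, a lipid-droplet protein induced by low oxygen, at 0.066, and Gsto1, a glutathione transferase, at 0.10. Ifi27 had 154 and 126 RPKM in controls and 280.0 and 212 RPKM in knockouts. The closest to Dusp5, the member with the next highest mean over the 4 libraries, were Timm50, Golga5 and Capns1, at distances of 0.020 to 0.026. With 4 libraries, many genes can share such a profile.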

How the data were processed

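The submitters' processing notes list build mm10 (GRCm38) and the tools STAR, Trim Galore, edgeR and featureCounts of the Subread package. Their versions and settings, and how the 11603 genes were selected, are not stated in those sources. Per the labels' protocols, cDNA was made with a low-input SMART-Seq kit. The deposited columns are RPKM computed by the authors. This was read from the values, since multiplying by gene length gave whole multiples of 1 step in each library for 100% of genes, with a tolerance of 0.01 reads. Columns starting with Ct were taken as control and those starting with Fl, which the labels do not spell out, as knockout. The authors' deposited q-value has no stated model.

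limma 3.58.1 with a mean-variance trend was run in R 4.3.3 on log2(RPKM + 0.5) values of the 4 libraries. Genotype was the single term, and p-values were adjusted by Benjamini-Hochberg over the 11603 genes. The fit was also run on simulated counts with the same fixed spread for every gene, which need not match the spread between these libraries. Standard errors and 95% intervals come from limma. Alternatives were other pseudocounts, a filter on low values, other scalings, limma-voom on recovered reads, a replicate block and leaving out each library.

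The members and lists were chosen with earlier results of these data known. The genes named are Hr, the 10 members, in each pathway list those past the threshold or else the 2 with the highest mean CPM, and the 3 genes closest to Dusp1 and Dusp5. Cell type markers, Dusp6 beside Dusp7, and Mapk4, Mapk6 and Mapk7 were named after their values were seen. Some genes that this rule names are not reported here. Ratios between members were chosen after their values were seen.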

Additional observations from a re-analysis of the deposited data

How the results depend on the processing

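Under 11 alternatives, the signs of Dusp1, Dusp2, Dusp4, Dusp10, Dusp14 and Dusp26 did not change. Without 1 library in turn, the log2 fold change ranged from 0.56 to 0.999 for Dusp1, 0.60 to 0.72 for Dusp2, 0.73 to 1.01 for Dusp14, 0.70 to 0.95 for Dusp26, -0.81 to -0.26 for Dusp10, -0.82 to -0.20 for Dusp4, -0.0016 to 0.085 for Dusp5, -0.60 to 0.016 for Dusp7, -0.26 to 0.32 for Dusp8 and -0.11 to 0.43 for Dusp16. With 1 library left in a group, that library is assumed to vary like the other group. Scaled by the reads listed, the signs of Dusp5, Dusp8 and Dusp16 reversed, at -0.19, -0.20 and -0.058. The medians on that scale were 0.12 for the nuclear inducible members, -0.13 for the other members and -0.20 over all genes. Signs also reversed for Dusp5 without knockout 1 (-0.0016), Dusp7 and Dusp8 without knockout 2 (0.016 and -0.26), Dusp8 without control 1 (-0.0012) and Dusp16 without control 2 (-0.11). Without 1 library in turn the medians ranged from 0.28 to 0.38 for the nuclear inducible members and from -0.021 to 0.22 for the others. Over all genes limma called 0 to 1 genes higher and 0 genes lower without 1 library, and limma-voom called 3 higher and 8 lower. With all 4 libraries limma called 0 higher and 1 lower. Apart from the block described next, no alternative called a member. The causes were not tested.

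The labels number the libraries 1 and 2 in both groups but do not say that a number marks a shared animal, litter or day. Deviations of same-numbered libraries correlated at 0.39 across genes, which are not independent replicates, over 2 pairs. With the number as a replicate block, limma called 591 genes higher and 413 lower, 5.09% and 3.56% of all genes. It called 4 members higher, Dusp1 (adjusted p = 0.0392), Dusp2 (0.0355), Dusp14 (0.0238) and Dusp26 (0.0321), and 1 lower, Dusp10 (0.0483). This fit leaves 1 residual degree of freedom per gene. Dusp26, with 49 to 133 reads a library, is the member most limited by depth.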
